A study of Mus musculus with 8 samples.

Results

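The suppressor of cytokine signalling (SOCS) family was compared between 2 populations of mouse regulatory T cells (Tregs), the CD4+ T cells that restrain immune responses. Its 8 members, Socs1 to Socs7 and Cish, were taken by gene symbol, with no measured value in the choice, from the 47069 Ensembl genes present in both deposited tables. All 8 passed the filter on low values (at least 1 FPKM, fragments per kilobase and megafragment, in at least 4 of the 8 libraries), as did 12273 genes in all.

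The cells came from lymph nodes of C57BL/6 mice aged 6 to 8 weeks that carried 2 reporters together, 35EbiT, whose Ebi3-marked cells the labels give as Thy1.1+, and a GFP knock-in at Blimp1, so that neither population is free of a reporter allele. Ebi3-Treg cells were sorted as Thy1.1+Blimp1- and Blimp1-Treg cells as Thy1.1-Blimp1+, and both were CD4+CD25+ and, per the labels' protocols, low for CD62L, at a typical purity above 90%. Each population had 4 libraries, numbered 1 to 4, made from 10 pg to 10 ng of total RNA with SMART-Seq v4 Ultra, a low-input kit that amplifies cDNA. Nothing in the labels says that the libraries came from separate animals, and the p-values therefore describe only how far these libraries spread, which may be technical. In bulk RNA, fewer cells that express a gene and less RNA per cell cannot be told apart.

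Cytokines that signal through Janus kinases (JAKs) and STAT transcription factors induce SOCS genes, and the SOCS proteins then switch the same pathway off. Each protein carries an SH2 domain that binds phosphorylated receptors or kinases and a SOCS box that joins elongins B and C to a cullin 5 ubiquitin ligase. Socs1 and Socs3 also hold a kinase inhibitory region that blocks JAK activity directly. In mouse Tregs, Socs1 is known to restrain interferon-gamma signalling and to keep the suppressive state stable, and Cish and Socs2 are classical targets of STAT5, the factor that IL-2 activates.

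The depth behind the FPKM values was 13.3 to 31.3 M fragments per library (M, mega), so that 1 read over 1 kb came to between 0.0320 and 0.0750 FPKM, and counting error was small for every member. The lowest member value, 1.1 FPKM of Socs7 in Blimp1-Treg 4, stands for about 118 reads at the exon length of the reference annotation. The deposited values come in 2 tables, with libraries 1 and 2 of each population in the first and libraries 3 and 4 in the other, so levels set side by side across the tables carry that limit. Xist, the transcript of the inactive X chromosome, was at 18.5 to 24.4 FPKM in libraries 3 and 4 and at 0.00821 to 0.0750 FPKM in libraries 1 and 2, so a difference between the tables and a difference between female and male cells cannot be told apart. The Treg label fitted the markers, with Foxp3 at 292 ± 90.0 FPKM in Ebi3-Treg cells and 313 ± 95.6 FPKM in Blimp1-Treg cells (SD, n = 4 each). None of the 6 Treg defining markers (Foxp3, Cd4, Cd3e, Il2ra, Ctla4 and Ikzf2) passed the test. With the replicate number as a block, 2 of them, Cd3e and Ctla4, were lower in Ebi3-Treg, in a fit that called 22.4% of all genes.

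Sequences for the members were taken from RefSeq on build GRCm38.p6. Of the members searched, 4 had a promoter window of 300 bases (250 before and 50 after the gene start). Socs2, Socs5 and Socs7 had no entry, and Socs6 was not searched. The windows of Cish, Socs3 and Socs1 are shown because Cish and Socs3 hold TTCNNNGAA, the letters that STAT dimers are known to bind, and Socs1, the member that was higher in Ebi3-Treg, does not. The motif is its own reverse complement, so a single search covers both strands, and capitals mark it.
Cish promoter (chr9:107296409-107296708, plus strand): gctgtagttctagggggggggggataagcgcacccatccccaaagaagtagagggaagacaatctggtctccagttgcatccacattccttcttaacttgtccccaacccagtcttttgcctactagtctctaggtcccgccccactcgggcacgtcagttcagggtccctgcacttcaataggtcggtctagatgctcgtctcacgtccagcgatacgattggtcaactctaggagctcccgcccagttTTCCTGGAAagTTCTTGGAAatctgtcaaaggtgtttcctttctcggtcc
Socs3 promoter (chr11:117969317-117969616, minus strand): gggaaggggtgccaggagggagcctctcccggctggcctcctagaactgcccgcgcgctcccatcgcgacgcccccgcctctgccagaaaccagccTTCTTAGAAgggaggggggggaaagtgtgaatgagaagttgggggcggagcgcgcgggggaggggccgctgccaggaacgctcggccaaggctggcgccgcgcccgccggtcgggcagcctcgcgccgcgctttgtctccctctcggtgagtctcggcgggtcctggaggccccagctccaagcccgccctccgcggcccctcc
Socs1 promoter (chr16:10785487-10785786, minus strand): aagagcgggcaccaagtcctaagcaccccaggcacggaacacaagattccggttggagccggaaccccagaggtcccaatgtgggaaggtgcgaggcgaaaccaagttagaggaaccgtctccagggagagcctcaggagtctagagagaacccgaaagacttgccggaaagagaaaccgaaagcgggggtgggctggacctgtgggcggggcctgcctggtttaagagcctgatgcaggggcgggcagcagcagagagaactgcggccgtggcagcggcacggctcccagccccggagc
The Cish window held 2 copies, TTCCTGGAA at position 1 and TTCTTGGAA at position 12 counted from the gene start, which lie 11 bases apart from start to start and do not overlap. The Socs3 window held 1 copy, TTCTTAGAA at position -154. The Socs4 window, like that of Socs1, held none. Of 32851 promoter windows of the same length, 2726 (8.30%) held the motif at least once and 150 (0.457%) at least 2 times. A match describes these letters only.

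Of the 8 members, 1 was higher and 1 lower in Ebi3-Treg, and 6 did not pass the test. Socs1, the member that blocks JAKs most directly, was higher, and Socs2, a STAT5 target, was lower. The share of members called, 25.0%, stands beside 6.29% of all genes tested, with 3.37% of genes called higher and 2.93% called lower (limma, Benjamini-Hochberg adjusted p under 0.05). With the replicate number as a block, 22.4% of genes were called, 13.5% higher and 8.94% lower, and the same 2 members were called. The median log2 fold change was 0.14 over the 8 members and 0.07 over all genes tested. Every log2 difference or fold change below sets Ebi3-Treg over Blimp1-Treg on the log2(FPKM + 1) scale, where the change of low genes is understated.

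**Figure D1:**
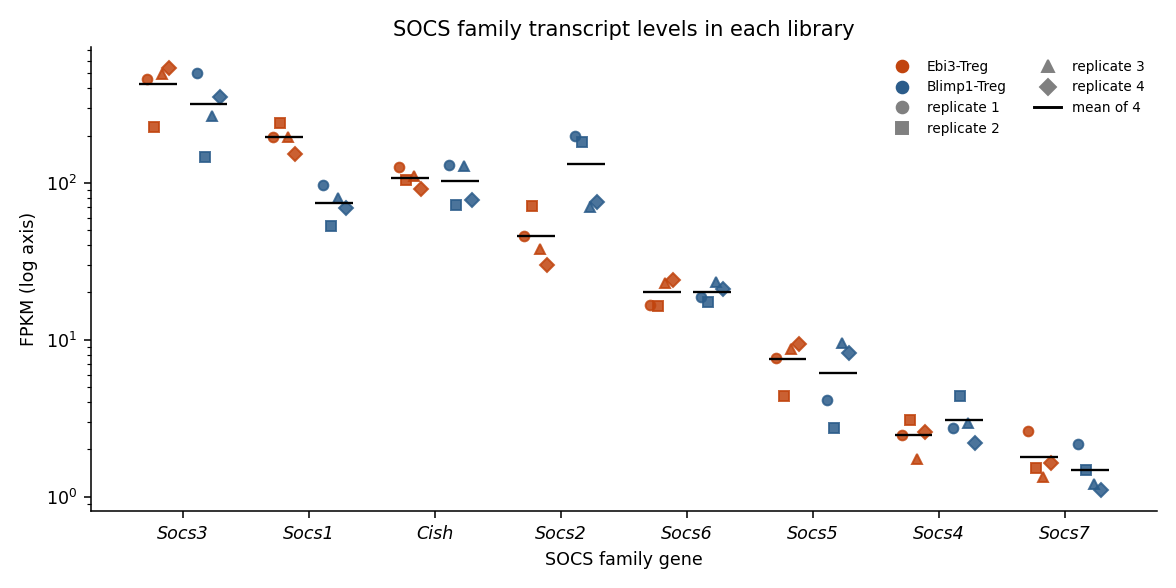
FPKM of each SOCS family gene in each library on a log axis, with Ebi3-Treg left of Blimp1-Treg, symbols for the replicate number and a bar at the mean of 4. Socs1 lies between 152 and 241 FPKM in Ebi3-Treg cells and between 53.2 and 96.6 FPKM in Blimp1-Treg cells, while Socs2 lies mostly lower in Ebi3-Treg and the other members overlap.

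Socs1 (ENSMUSG00000038037), the member that blocks JAK1, JAK2 and TYK2 directly and is best known for limiting interferon-gamma signalling, was at 197, 241, 197 and 152 FPKM in Ebi3-Treg 1 to 4, against 96.6, 53.2, 79.5 and 69.0 FPKM in Blimp1-Treg 1 to 4. Every Ebi3-Treg library lay above every Blimp1-Treg library, and the lowest Ebi3-Treg value was well clear of the highest Blimp1-Treg value. Such a lack of overlap over all 8 libraries was seen for 11.1% of genes tested, and Socs1 was the only member to show it. Socs1 averaged 197 ± 36.5 FPKM in Ebi3-Treg cells and 74.6 ± 18.2 FPKM in Blimp1-Treg cells (SD, n = 4 each), a ratio of means of 2.64. The log2 fold change was 1.40 (SE 0.22, 95% interval 0.90 to 1.90, limma adjusted p = 0.00893).

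The Socs1 difference had the same sign in each table. It was 1.59 on the log2 scale in libraries 1 and 2, where limma on those 4 libraries alone called no gene at all (0% of genes, with 707 at an unadjusted p under 0.05, and an adjusted p of 0.502 for Socs1). In libraries 3 and 4 it was 1.21 (adjusted p = 0.0142), in a fit that called 11.0% of genes. Between libraries of the same number, Socs1 was higher in Ebi3-Treg in 4 of 4, by 1.02, 2.16, 1.30 and 1.13 on the log2 scale for numbers 1 to 4. Number 2 gave the largest of these, with the highest Ebi3-Treg and the lowest Blimp1-Treg value.

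Socs1 is a known target of the microRNA miR-155, which binds its 3' untranslated region and matters for Treg numbers in mice. The RefSeq mature sequence and the match in Socs1 are shown because Socs1 was the only member searched that held one. Capitals mark the seed (bases 2 to 8 of the microRNA) and the bases that pair with it, and both sequences run 5' to 3'.
miR-155-5p (chr16:84714143-84714165, plus strand, GRCm38.p6): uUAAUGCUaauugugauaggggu
Socs1 site (3' untranslated region, GENCODE vM21): ugccgcugugccgcAGCAUUAa
The seed match begins at base 20 of the longest annotated 3' untranslated region of Socs1, which has 1993 bases. No match to the 7 seed bases was found in the longest such region of Socs2, Socs3, Socs4, Socs5, Socs7 or Cish, and Socs6 was not searched.

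Mir155hg, the host transcript of miR-155, was at 7.32, 26.9, 7.31 and 6.69 FPKM in Ebi3-Treg 1 to 4, against 2.14, 14.8, 4.88 and 2.64 FPKM in Blimp1-Treg 1 to 4. Both libraries numbered 2 stood above the other libraries of their population, so the populations overlapped through Blimp1-Treg 2. Its log2 fold change was 0.95 (SE 0.55, adjusted p = 0.440), and the adjusted p was 0.00833 with the replicate number as a block. Thus Mir155hg was called only with the block, in the same direction as Socs1. The separate row for Mir155 itself is listed at 0 in every library, and mature microRNA was not analysed here.

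Socs2 (ENSMUSG00000020027), a STAT5 target best known for restraining growth hormone signalling, went the other way. It was at 45.5, 70.9, 37.9 and 29.8 FPKM in Ebi3-Treg 1 to 4, against 200, 181, 69.6 and 75.4 FPKM in Blimp1-Treg 1 to 4. Within each table both Ebi3-Treg libraries lay below both Blimp1-Treg libraries, but over all 8 libraries the populations touched, since Ebi3-Treg 2 was just above Blimp1-Treg 3. Populations that stayed apart inside each of the 2 tables, in 1 direction, were found for 19.0% of genes tested, and among the members for Socs1 and Socs2. Socs2 averaged 46.0 ± 17.8 FPKM in Ebi3-Treg cells and 131 ± 68.4 FPKM in Blimp1-Treg cells (SD, n = 4 each), so that the Blimp1-Treg mean was 2.85 times the Ebi3-Treg mean. The log2 fold change was -1.40 (SE 0.20, 95% interval -1.87 to -0.94, limma adjusted p = 0.00700).

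The Socs2 change was -1.72 in libraries 1 and 2 alone (adjusted p = 0.346) and -1.09 in libraries 3 and 4 alone (adjusted p = 0.0147). By number the log2 differences were -2.11, -1.34, -0.86 and -1.31, lower in Ebi3-Treg in 4 of 4. Socs2 was also the only member called for a difference between the tables, in a comparison added after the values were seen. It averaged 53.2 FPKM in libraries 3 and 4 and 124 FPKM in libraries 1 and 2, a log2 difference of -1.06 (SE 0.20, adjusted p = 0.0255), where 8.41% of genes were called. Socs5 and Socs6 were higher in libraries 3 and 4, by 0.87 (adjusted p = 0.0571) and 0.38 (adjusted p = 0.0969), without a call. Without the table term, which cannot alter the size of the difference in this balanced design, Socs2 had an adjusted p of 0.132.

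The interaction of population and table, which tests whether a population difference changed between the tables, called 0 of the 8 members and 0% of genes (limma, with 203 genes at an unadjusted p under 0.05). Taken as libraries 3 and 4 minus libraries 1 and 2, the term was -0.38 (SE 0.45) for Socs1 and 0.64 (SE 0.37) for Socs2, each with an adjusted p of 1.

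**Figure D2:**
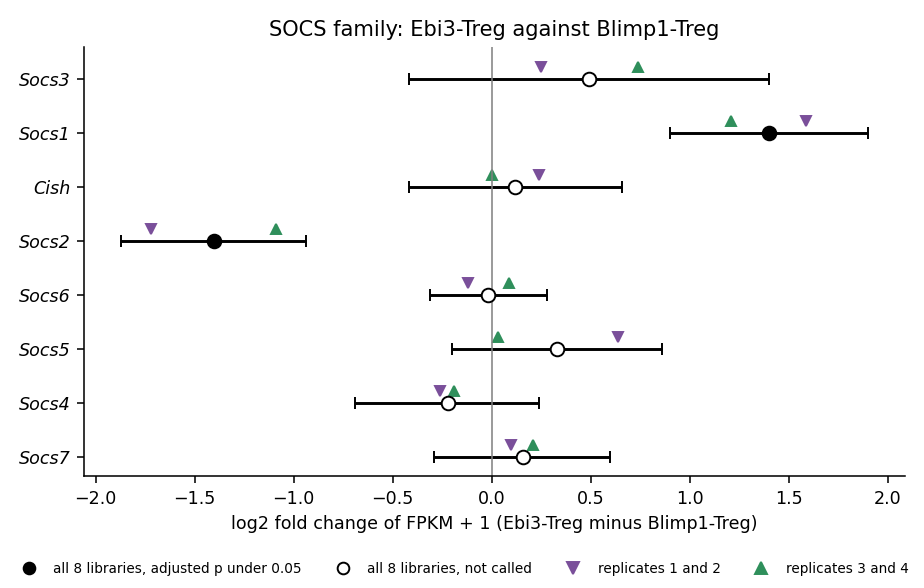
Log2 fold change of FPKM + 1, Ebi3-Treg minus Blimp1-Treg, for each SOCS family gene, with 95% intervals from the fit of all 8 libraries and triangles for each table alone. Socs1 at 1.40 and Socs2 at -1.40 are the filled points, and the intervals of the other 6 members include 0.

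Socs3 (ENSMUSG00000053113), which binds the IL-6 receptor chain gp130 and is best known for damping STAT3, had the highest mean of the family in each population. It was at 456, 226, 495 and 535 FPKM in Ebi3-Treg 1 to 4, against 499, 146, 267 and 354 FPKM in Blimp1-Treg 1 to 4. The populations overlapped, with both libraries numbered 2 low and Blimp1-Treg 1 as high as the upper Ebi3-Treg libraries. Socs3 averaged 428 ± 138 FPKM in Ebi3-Treg cells and 317 ± 149 FPKM in Blimp1-Treg cells (SD, n = 4 each), with a log2 difference of 0.49 (SE 0.39, 95% interval -0.42 to 1.40, adjusted p = 0.625).

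By number, Socs3 was higher in Ebi3-Treg in 3 of 4, with log2 differences of -0.13, 0.63, 0.89 and 0.59. In libraries 3 and 4 alone the difference was 0.74 with no overlap (adjusted p = 0.0417), and in libraries 1 and 2 alone it was 0.25 (adjusted p = 1). Without both libraries numbered 1 it was 0.70 (adjusted p = 0.0132), and without both numbered 2 it was 0.45 (adjusted p = 0.180). Leaving out a single library called Socs3 in 0 of 8 runs and moved its difference to between 0.19, without Blimp1-Treg 2, and 0.90, without Blimp1-Treg 1, and it was 0.75 without Ebi3-Treg 2. The 2 libraries numbered 1 also held the most B cell RNA. Cd79a, a chain of the B cell receptor complex, was at 65.1 FPKM for Ebi3-Treg 1 and 52 FPKM for Blimp1-Treg 1. The other 6 libraries reached at most 2.31 FPKM, and the part of B cell RNA in the Socs3 values was not tested.

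Cish (ENSMUSG00000032578), a STAT5 target that damps IL-2 and T cell receptor signalling, was at 126, 104, 111 and 91.0 FPKM in Ebi3-Treg 1 to 4, against 130, 72.3, 128 and 78.1 FPKM in Blimp1-Treg 1 to 4. The Ebi3-Treg values fell inside the Blimp1-Treg range in every library, and by number Cish was higher in Ebi3-Treg in 2 and lower in 2. The means were 108 ± 14.5 FPKM in Ebi3-Treg cells and 102 ± 31.1 FPKM in Blimp1-Treg cells (SD, n = 4 each). The log2 fold change was 0.12, with a 95% interval of -0.42 to 0.66 (adjusted p = 0.889), so a difference of the size seen for Socs1 or Socs2 lay outside the interval. Cish shares exons with Gm17040 and Gm17041 on the opposite strand, and the strand handling is not given, but these were at 0.378 to 1.31 FPKM and 0 FPKM.

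Cish and Socs2 are both known STAT5 targets, yet their values parted between the populations. The log2 ratio of Cish to Socs2 within a library averaged 1.27 ± 0.49 in Ebi3-Treg and -0.25 ± 0.93 in Blimp1-Treg (SD, n = 4 each). It ran from 0.54 to 1.58 in Ebi3-Treg and from -1.31 to 0.87 in Blimp1-Treg, so the ranges overlapped. The difference of 1.52 had an exact two-sided permutation p of 0.0556 over the 36 assignments within tables, which is the smallest this design allows, so the 0.05 threshold could not be reached.

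The kinase-blocking members Socs1 and Socs3 were set against each other in the same way. The log2 ratio of Socs1 to Socs3 averaged -1.06 ± 0.81 in Ebi3-Treg and -1.97 ± 0.46 in Blimp1-Treg (SD, n = 4 each). The difference of 0.91 had an exact two-sided permutation p of 0.111, again with 0.0556 as the smallest possible.

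The remaining members were low and did not pass the test. Socs6, an adaptor that binds activated receptor tyrosine kinases, was the most even of them, at 20.0 ± 4.06 FPKM in Ebi3-Treg cells and 20.1 ± 2.62 FPKM in Blimp1-Treg cells (SD, n = 4 each). Its log2 fold change was -0.02, and the 95% interval of -0.31 to 0.28 was the narrowest of the family. Socs5, reported in mice to damp IL-4 and epidermal growth factor signalling, was at 7.62, 4.38, 8.71 and 9.45 FPKM in Ebi3-Treg 1 to 4, against 4.14, 2.73, 9.53 and 8.29 FPKM in Blimp1-Treg 1 to 4. Its values were lower in libraries 1 and 2 than in 3 and 4 of the same population, and the log2 fold change of 0.33 (95% interval -0.20 to 0.86, adjusted p = 0.551) came with 0.64 in the first table and 0.03 in the other. Socs4, a close relative of Socs5, averaged 2.46 ± 0.549 FPKM in Ebi3-Treg cells and 3.08 ± 0.941 FPKM in Blimp1-Treg cells, a log2 difference of -0.22 (95% interval -0.69 to 0.24, adjusted p = 0.678). Socs7, which has been tied to insulin signalling, averaged 1.78 ± 0.573 FPKM in Ebi3-Treg cells and 1.49 ± 0.488 FPKM in Blimp1-Treg cells (SD, n = 4 each). Its log2 fold change was 0.16 (95% interval -0.29 to 0.60, adjusted p = 0.797), with small positive differences in 4 of 4 numbers, from 0.02 to 0.33.

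Ordered by mean FPKM, which is per transcript length, the family in Ebi3-Treg ran Socs3, Socs1, Cish, Socs2, Socs6, Socs5, Socs4 and Socs7. In that order the ranges of Socs3 and Socs1 and those of Socs4 and Socs7 overlapped, and the other neighbours did not. In Blimp1-Treg it ran Socs3, Socs2, Cish, Socs1, Socs6, Socs5, Socs4 and Socs7, with overlap between Socs3 and Socs2, Socs2 and Cish, Cish and Socs1, and Socs5 and Socs4. Thus Socs1 and Socs2 changed places around Cish, and the lower 4 members kept theirs. Within libraries, Socs1 ranked 2, 1, 2 and 2 in Ebi3-Treg 1 to 4 and 4, 4, 3 and 4 in Blimp1-Treg 1 to 4. Socs2 ranked 4 in every Ebi3-Treg library and 2, 1, 4 and 3 in Blimp1-Treg 1 to 4.

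The summed FPKM of the family was 853, 667, 875 and 845 in Ebi3-Treg 1 to 4, against 952, 478, 581 and 609 in Blimp1-Treg 1 to 4. Blimp1-Treg 1 exceeded every Ebi3-Treg library and the other Blimp1-Treg libraries lay below them all, so the sums overlapped. Socs3, Socs1, Cish and Socs2 together made up 93.6% to 97.1% of it in each library. Socs1 held 18% to 36.1% of the sum in Ebi3-Treg and 10.1% to 13.7% in Blimp1-Treg, and Socs2 held 3.53% to 10.6% in Ebi3-Treg and 12% to 37.8% in Blimp1-Treg. The ranges of these shares did not overlap for either gene. A share depends on the other members, so it is no measure of its own.

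**Figure D3:**
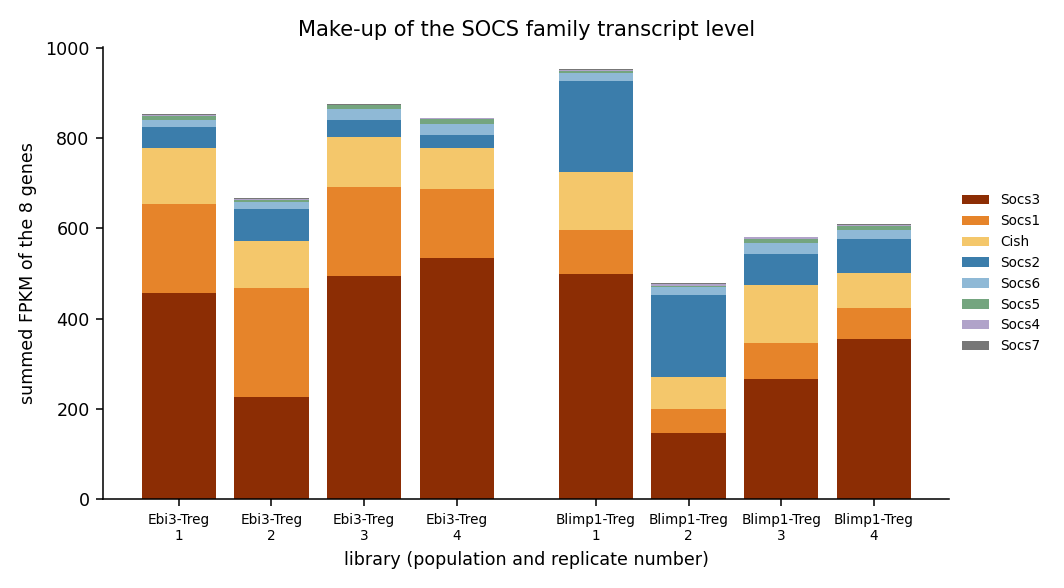
Stacked bars of the summed FPKM of the 8 SOCS family genes in each library, the 4 Ebi3-Treg libraries left of the 4 Blimp1-Treg libraries. The Socs1 band is wider and the Socs2 band narrower in each Ebi3-Treg library as a share of its bar, with the tallest bar, 952 FPKM, in Blimp1-Treg 1.

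Among 8488 named genes with a mean of at least 5 FPKM, those whose profile over the 8 libraries was most like that of each called member were found by the root mean square difference of centred log2 values, as a description. Nearest to Socs1 were Pheta1 (0.20), Ubxn11 (0.23) and Pim2 (0.24). Nearest to Socs2 were Vamp5 (0.26), the costimulatory receptor gene Icos (0.29) and the monocarboxylate transporter family gene Slc16a6 (0.31). Pim2, a survival kinase gene, was at 97.0 to 116 FPKM in Ebi3-Treg cells and 26.4 to 37.1 FPKM in Blimp1-Treg cells. Icos was at 149 to 359 FPKM in Ebi3-Treg cells and 463 to 966 FPKM in Blimp1-Treg cells.

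The genes around the family were read from lists of its upstream receptors, kinases, partners and targets, some of which share members. None of the 11 JAK and STAT genes was called, with a median log2 fold change of 0.14, although the fit with the replicate block called 5 higher and 1 was called without Blimp1-Treg 2. Of all genes, the main fit called 6.29%, and the block called 22.4%, with 13.5% higher. Libraries 3 and 4 alone gave 2 calls, with 1 without both libraries numbered 1 and 3 without both numbered 2. In the same order, these fits called 1347, 1933 and 1963 genes in all, against 772 in the main fit. Stat5a, known to drive Cish and Socs2, averaged 92.2 ± 13.0 FPKM in Ebi3-Treg cells and 60.9 ± 13.6 FPKM in Blimp1-Treg cells (SD, n = 4 each), a log2 difference of 0.61 (adjusted p = 0.0973, and 0.0231 with the block). Stat4 had a log2 difference of 0.52 (adjusted p = 0.0676, and 0.00608 with the block), and Jak1, a kinase that Socs1 blocks, had 0.30 (adjusted p = 0.552, and 0.0360 with the block). Jak2, another such kinase, had -0.18 (adjusted p = 0.493).

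Of 31 cytokine receptor genes, 21 were tested, 3 were higher in Ebi3-Treg and none was lower, with a median of -0.17, and with the block 6 were higher and 5 lower. Over all genes the shares were 3.37% higher and 2.93% lower, and with the block 13.5% and 8.94%. Of the 3 calls 1 was left without Ebi3-Treg 4, Blimp1-Treg 3 or Blimp1-Treg 4, while 8 receptors were called in libraries 3 and 4 alone, 10 without both libraries numbered 1 and 9 without both numbered 2. The last 3 of these fits called 1347, 1933 and 1963 of all 12273 genes. Ifngr2, a chain of the interferon-gamma receptor, averaged 43.7 ± 22.3 FPKM in Ebi3-Treg cells and 11.5 ± 2.62 FPKM in Blimp1-Treg cells (SD, n = 4 each), a log2 difference of 1.75 (SE 0.24, adjusted p = 0.00542). Ifnar2, of the type I interferon receptor, had 0.72 (adjusted p = 0.0130) and Csf2ra, of the GM-CSF receptor, 1.13 (adjusted p = 0.0296). Il12rb1, of the IL-12 and IL-23 receptors, had -1.32 (adjusted p = 0.0579, and 0.000659 with the block).

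Of 19 cytokine genes that feed JAK-STAT signalling, 9 were tested, with 2 higher, 2 lower and a median of 0.19 (3 higher and 3 lower with the block). These counts stand beside 6.29% of all genes called, and 22.4% with the block. Lif, which signals through gp130 and is a known inducer of Socs3, averaged 8.18 ± 4.41 FPKM in Ebi3-Treg cells and 0.460 ± 0.263 FPKM in Blimp1-Treg cells (SD, n = 4 each), a log2 difference of 2.5 (adjusted p = 0.0110). Ebi3, the reporter gene, rose by 1.80 (adjusted p = 0.00576), a direction set by the gate, so Lif was the only other gene of the 2 called higher. Il21 fell by 1.02 on the log2 scale (adjusted p = 0.00838). Il10, whose receptor also induces Socs3 through STAT3, averaged 5.19 ± 1.80 FPKM in Ebi3-Treg cells and 320 ± 241 FPKM in Blimp1-Treg cells (SD, n = 4 each), a log2 difference of -5.35 (adjusted p = 0.00124).

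The SOCS box ubiquitin ligase and the other SOCS box proteins make short lists, whose counts cannot be set apart from the 6.29% of all genes called. Of 12 ligase genes, 0 were called (median -0.09, with 1 lower with the block, and 1 called without both libraries numbered 1 or both numbered 2). Among the 12 were Cul5, the cullin scaffold, at 0.12 (adjusted p = 0.748) and Dcun1d1 at 0.18 (adjusted p = 0.743). Nedd8, the modifier that activates cullins, was at -0.24 (adjusted p = 0.805), and Ube2f, its conjugating enzyme for cullin 5, was at -0.42 (adjusted p = 0.2, and 0.0142 with the block). Of 27 other SOCS box genes 13 were tested and 0 were called (median -0.06, with 2 higher and 1 lower with the block, and 1 called without Ebi3-Treg 2 or without Blimp1-Treg 1). Quantile or median ratio scaling called 1 of these. Libraries 3 and 4 alone gave 3 calls, with 3 without both libraries numbered 1 and 4 without both numbered 2. Of all 12273 genes, these fits called 1347, 1933 and 1963, and the block called 22.4%. In the main fit the smallest p of these 13 genes was that of Spsb1, with a log2 difference of 0.86 (adjusted p = 0.0549, and 0.00237 with the block). Spsb1 was at 62.0 ± 12 FPKM in Ebi3-Treg cells and 33.8 ± 7.38 FPKM in Blimp1-Treg cells (SD, n = 4 each).

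Of 19 other inhibitors of JAK-STAT signalling tested, 3 were called, all higher in Ebi3-Treg, with a median of 0.13 (4 higher and 1 lower with the block). These counts stand beside 6.29% of all genes called, 3.37% higher, and 22.4% called with the block. Of the 3 calls 1 was left without Ebi3-Treg 2 and 0 without Ebi3-Treg 3, Ebi3-Treg 4, Blimp1-Treg 3 or Blimp1-Treg 4. The table term and the filter mattered too, with 0 left without either. Sh2b3, which encodes the JAK2-binding adaptor LNK, averaged 43.1 ± 16.6 FPKM in Ebi3-Treg cells and 10.3 ± 4.67 FPKM in Blimp1-Treg cells (SD, n = 4 each), a log2 difference of 1.99 (adjusted p = 0.0262). Ptpn6, which encodes the phosphatase SHP-1, had a log2 difference of 0.79 (adjusted p = 0.0249). Dusp2, which encodes a nuclear phosphatase, had 0.88 (adjusted p = 0.0499). Usp18, which blocks the type I interferon receptor, had 1.49 (adjusted p = 0.0658, and 0.00191 with the block).

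**Figure D4:**
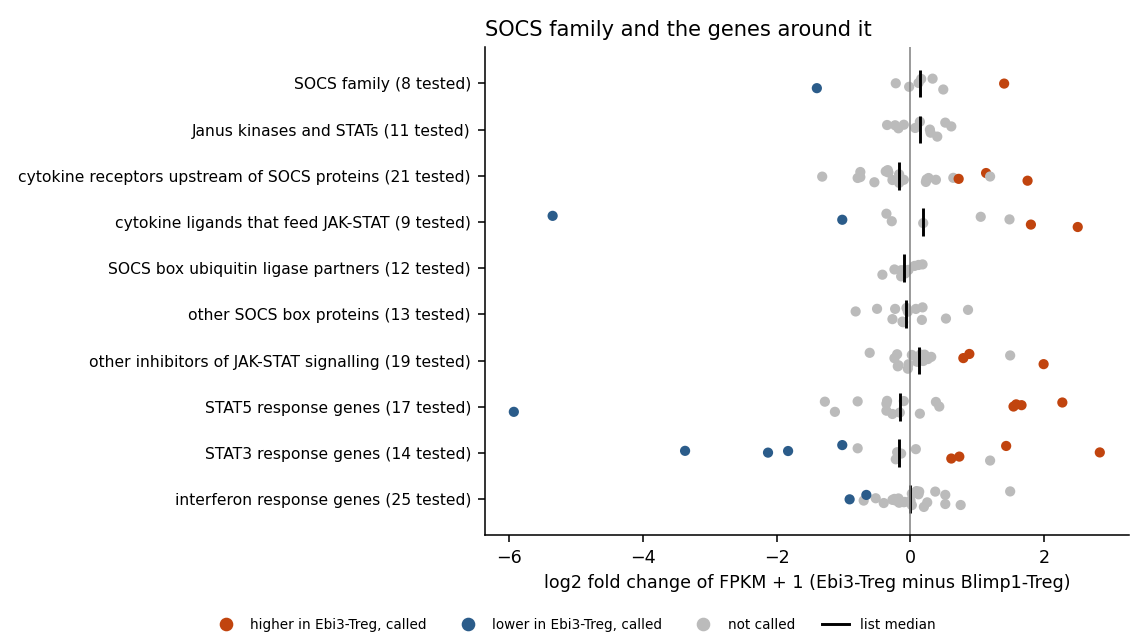
Log2 fold change of FPKM + 1, Ebi3-Treg minus Blimp1-Treg, for each tested gene of the SOCS family and of the lists around it, with called genes in colour and a bar at each list's median. The SOCS family holds 1 called gene on each side, the Janus kinases and STATs none, and the STAT3 response genes 4 on each side.

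Response genes of the STAT factors were mixed. Of 17 STAT5 response genes, 4 were higher and 1 was lower, with a median of -0.16 (5 higher and 6 lower with the block). Over all genes, 3.37% were called higher and 2.93% lower, and with the block 13.5% and 8.94%. The 4 that rose were Lta, which encodes lymphotoxin alpha (log2 fold change 2.27, adjusted p = 0.000455), Pim2 (1.66, adjusted p = 0.00116), Bcl2, which encodes a survival protein (1.58, adjusted p = 0.0114), and Myc (1.54, adjusted p = 0.00600). Gzmb, which encodes granzyme B, fell by 5.93 on the log2 scale (adjusted p = 0.000310), and the other 12 genes were not called. Thus the STAT5 targets within and outside the family did not share a direction, with Socs2 and Gzmb lower, Lta, Pim2, Bcl2 and Myc higher and Cish not called.

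Of 14 STAT3 response genes, 4 were higher and 4 lower (median -0.17, and 5 higher and 4 lower with the block). The 8 calls became 3 without Ebi3-Treg 3 or Ebi3-Treg 4 and 4 without Blimp1-Treg 3 or Blimp1-Treg 4. Tgm2 had the largest rise, 2.83 on the log2 scale (adjusted p = 0.00124), beside Bcl6 at 1.43, Junb at 0.73 and Fos at 0.61. Il17a had a log2 difference of -3.37 (adjusted p = 0.0138), beside -1.83 for Maf and -1.02 for Il21. Of 25 interferon response genes, 0 were higher and 2 were lower, with a median of 0.00 to 2 decimals (5 higher and 4 lower with the block). These counts stand beside 6.29% of all genes called, and 22.4% with the block. Socs1 is known to restrain this class of genes, but its part in these values was not tested. The 2 calls became 0 without Ebi3-Treg 2, Ebi3-Treg 3 or Blimp1-Treg 4 and 0 without the filter, and 1 without Ebi3-Treg 4, Blimp1-Treg 2 or Blimp1-Treg 3. The 2 were the interferon-inducible GTPase genes Iigp1, at 27.4 ± 3.30 FPKM in Ebi3-Treg cells and 53.3 ± 12.5 FPKM in Blimp1-Treg cells (SD, n = 4 each, log2 fold change -0.91, adjusted p = 0.0185), and Igtp, with -0.66 (adjusted p = 0.0389). Irf8, an interferon regulatory factor, had 0.75 (adjusted p = 0.0920, and 0.00614 with the block).

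Markers of other cells were detected in every library. The summed level of 12 B cell markers was 205 to 1110 FPKM in Ebi3-Treg cells and 166 to 654 FPKM in Blimp1-Treg cells, and that of 17 myeloid and dendritic cell markers was 24.6 to 182 FPKM in Ebi3-Treg cells and 22.8 to 47.6 FPKM in Blimp1-Treg cells. Both sums were higher in the Ebi3-Treg library in 4 of 4 numbers. Of 7 B cell and 5 myeloid markers tested none was called, while the block called 2 and 3 higher, and no listed marker was at 0 in every library. Over all genes the block called 13.5% higher. Sums of 7 NK and CD8 T cell markers (12.3 to 73.9 FPKM in Ebi3-Treg, 11.8 to 37.6 FPKM in Blimp1-Treg) and of 10 erythroid and stromal markers (31.1 to 71.0 FPKM in Ebi3-Treg, 17.3 to 37.2 FPKM in Blimp1-Treg) overlapped, with 0 of 4 and 0 of 2 tested genes called. The NK and CD8 T cell sum was higher in Ebi3-Treg in 3 of 4 numbers, with 0 genes called with the block. The erythroid and stromal sum was higher in Ebi3-Treg in 4 of 4 numbers, but Pecam1, listed as an endothelial marker, made up most of it in every library. Pecam1 was at 30.2 to 61.2 FPKM in Ebi3-Treg cells and 15.9 to 32.3 FPKM in Blimp1-Treg cells. It was the 1 gene that the block called, with a log2 difference of 0.77 (adjusted p = 0.163, and 0.00285 with the block). Cdh5, also an endothelial marker, reached at most 0.176 FPKM and was too low to be tested. In libraries 3 and 4, where the B cell sums were 237 and 205 FPKM in Ebi3-Treg cells and 215 and 166 FPKM in Blimp1-Treg cells, and the myeloid sums 24.6 and 34.1 FPKM in Ebi3-Treg and 22.8 and 28.6 FPKM in Blimp1-Treg, the Socs1 difference was 1.21 and the Socs2 difference -1.09. These sums lay further apart in libraries 1 and 2, and the part of other cells in the member values was not tested in any library.

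Cell cycle genes were, like Socs2, lower in Ebi3-Treg where they were called. Of 18 cell cycle genes, 0 were higher and 10 were lower in Ebi3-Treg (14 lower with the block), and the median was -1.37 on the log2 scale. Over all genes, 2.93% were called lower, and 8.94% with the block. Their summed level was 393 to 716 FPKM in Ebi3-Treg cells and 689 to 1030 FPKM in Blimp1-Treg cells. Rrm2, a subunit of ribonucleotide reductase, averaged 33.0 ± 16.5 FPKM in Ebi3-Treg cells and 107 ± 30.1 FPKM in Blimp1-Treg cells (SD, n = 4 each, log2 fold change -1.76, adjusted p = 0.00124). The part of cycling cells in the Socs2 or Socs1 values was not tested. Of the 6 sort and reporter genes, Ebi3 was higher and Prdm1, which encodes Blimp1, was lower, with a log2 difference of -4.43 (adjusted p = 0.000155), as the gates require.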

How the data were processed

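RNA-seq of 8 sorted Treg libraries was used, 4 per population. The values are FPKM per gene, as deposited by the authors in 2 tables. Reads were processed on mm9 with TopHat2 2.0.12, Bowtie2 2.2.3 and HTSeq 0.6.1, per the submitters' processing notes. The annotation, the strand setting and each tool's role were not given in the sources used here. No column was left out (0 unused).

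The members were matched by Ensembl identifier. Low FPKM values are whole multiples of the value of 1 read, which gave the depth of 13.3 to 31.3 M fragments (M, mega). With reference exon lengths, 34.9% to 45.5% of values were whole within 0.01, so no count test was run. Without molecular identifiers, reads may be copies of 1 molecule, so depth speaks to counting error only.

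Genes with at least 1 FPKM in 4 libraries (12273) were fitted as log2(FPKM + 1) in R 4.3.3 (limma 3.58.1), with terms for population and table, a variance trend and a two-sided Benjamini-Hochberg adjusted p under 0.05. Adjusted p-values come from this limma fit where none other is named. Ratios were tested with exact permutation within tables.

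Deviations from the population means correlated between libraries that share a number (r = 0.62, 0.89, 0.53 and 0.54 across genes for numbers 1 to 4), each over 0.1, so a block was fitted on the numbers, from the data and not the labels. Between different numbers of the second table r was as high (0.61 for Ebi3-Treg 4 with Blimp1-Treg 3 and 0.56 for Ebi3-Treg 3 with Blimp1-Treg 4). Relative to table means r was 0.85 for 1 and 2 and -0.08 for 3 and 4, so 3 and 4 shared a table and no further pairing was seen. Sequences are from RefSeq (GRCm38.p6) and transcripts from GENCODE vM21, with no coordinate taken from the mm9 tables.

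The members, lists and tests were chosen with earlier results of these data known. Genes named are the 8 members, genes with the smallest p of most lists, the Treg markers, the 3 nearest profiles and Mir155hg. Fewer such genes are named for some lists than for others, and none for some marker lists. Genes outside that rule (Xist, Cd79a, Cdh5, Il17a, Junb, Fos, Bcl2) were chosen after their values were seen. Values of some other genes are not reported here.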

Additional observations from a re-analysis of the deposited data

How the results depend on the processing

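The calls of Socs1 and Socs2 held with the replicate number as a block, with pseudocounts of 0.1 and 0.01, without the filter, with a filter of 5 FPKM, without the variance trend, and under quantile and median ratio scaling, and no member reversed its direction past the threshold in any of them. The block changed no call of a member. Members called went from 2 to 1 without the table term, where Socs2 was lost, and to 0 in replicates 1 and 2 alone, and were 3, with Socs3, without both libraries numbered 1 and in replicates 3 and 4 alone. Leaving out any single library left 2 members called in 8 of 8 runs, with log2 fold changes of 1.19 to 1.53 for Socs1 and -1.53 to -1.21 for Socs2. Both scalings moved the median of all genes to 0.01, from 0.07 as deposited. Of all genes, 772 were called, against 2752 with the replicate block, 441 without the table term, 420 without the filter, 1933 without both libraries numbered 1, 1963 without both numbered 2, 0 in replicates 1 and 2 alone (707 at an unadjusted p under 0.05), 1347 in replicates 3 and 4 alone, and 317 to 726 with each library left out. The lowest counts came without Ebi3-Treg 4 (317), Blimp1-Treg 4 (335), Ebi3-Treg 3 (339), Blimp1-Treg 3 (393) and Ebi3-Treg 2 (497). Beyond the smaller number of samples, the cause of these moves was not tested. The log2 ratio difference of Cish to Socs2 ran from 1.30 to 1.75 and that of Socs1 to Socs3 from 0.58 to 1.23 with each library left out. Socs4 and Socs7 were not tested under the 5 FPKM filter. Depth limited no member, since the lowest stood for over 100 reads.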
